A study of Mus musculus with 8 samples.

Results

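The genes described here are 44 interferon-stimulated genes and interferon regulators, taken from a given list as those present in the table of normalised levels, which held 13341 genes in all. They were followed across CD4+ and CD8+ T cells of kidney and spleen from MRL/lpr mice aged 14 weeks. MRL/lpr mice carry the lpr mutation of the death receptor gene Fas and develop a disease like lupus with kidney inflammation. The cells of every group were sorted for high CD44, a surface protein of T cells that have met antigen, so all groups share the strain, the mutation, the age and the CD44 gate, and no healthy or non-lpr mice were analysed here. There were 4 groups of 2 libraries (kidney CD4+, kidney CD8+, spleen CD4+ and spleen CD8+), 8 in all. The labels do not say whether replicates came from separate animals or from pools, so every p-value below measures the spread between these libraries, which may be technical.

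Interferons are cytokines that put cells into an antiviral state. Type I interferons signal through the receptor of Ifnar1 and Ifnar2 to the kinases Jak1 and Tyk2, which activate a complex with Stat2 and Irf9 that binds interferon-stimulated response elements. Interferon gamma, a product of activated T cells themselves, signals through Ifngr1 and Ifngr2 to factors that bind gamma-activated sites. Irf7 amplifies the type I response and Usp18 dampens it at the receptor. A raised level of these genes in blood cells is a known feature of human lupus.

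The 44 genes fall into 5 roles. The 6 regulators are Irf1, Irf7, Irf8, Irf9, Stat2 and Usp18. The 12 genes of RNA and nucleotide sensing or decay include the RNA sensors Ifih1, Ddx58 and Dhx58, the 2′,5′-oligoadenylate synthetase family (Oas1a, Oas2, Oas3, Oasl1 and Oasl2), the exonuclease Isg20 and the nucleotide hydrolase Samhd1. Among the 15 antiviral effectors are Ifit1 to Ifit3, a family that acts on foreign RNA, and Ifitm1 to Ifitm3, membrane proteins that hinder viral entry. Isg15, Trim25, Trim30a and Parp14 make up the 4 modifiers, which attach small proteins or ADP-ribose to other proteins or regulate such steps. The 7 interferon-induced GTPases are Gbp2, Gbp3, Gbp7, Igtp, Irgm1, Irgm2 and Ifi47, which act against microbes inside cells.

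RefSeq promoter sequences (GRCm38.p6, 250 bases before to 50 after each start) were at hand for 36 of the 44 genes, and Oas2, Rtp4, Parp14, Dhx58, Ifi27l2a, Mx1, Zbp1 and Usp18 had no entry. Both strands were searched for a core of the interferon-stimulated response element, spelled GAAA, any 2 bases, GAAA, and for a core of the gamma-activated site, spelled TTC, any 3 bases, GAA. The response element core was found in 20 of the 36 genes (55.6%), against 3.99% of all 27025 genes in the promoter table. By promoter, it was in 21 of 44 (47.7%) against 3.44% of 32851. The gamma-activated core was found in 13 of the 36 genes (36.1%), against 9.55% of all genes, and in 29.5% of their promoters against 8.30% of all promoters. A match is a run of letters and not a shown binding site.

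The stretches below are the 250 bases before the start of genes on which the comparisons of organs and cell types turn, with motif matches in capitals. Isg20 has 3 promoter entries, of which the first holds a gamma-activated core 73 bases before the start. Ifitm2 has a response element core 46 bases before its start, Ifitm1 neither motif, and Gbp2 a response element core on the opposite strand. Of 2 Irf1 entries the first holds a gamma-activated core.
Isg20 (chr7:78913174-78913423, plus strand): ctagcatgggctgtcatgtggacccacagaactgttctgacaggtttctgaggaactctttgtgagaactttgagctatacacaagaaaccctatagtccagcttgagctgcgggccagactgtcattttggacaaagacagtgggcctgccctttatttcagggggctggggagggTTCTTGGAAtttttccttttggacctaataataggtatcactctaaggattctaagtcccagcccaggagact
Ifitm2 (chr7:140955962-140956211, minus strand): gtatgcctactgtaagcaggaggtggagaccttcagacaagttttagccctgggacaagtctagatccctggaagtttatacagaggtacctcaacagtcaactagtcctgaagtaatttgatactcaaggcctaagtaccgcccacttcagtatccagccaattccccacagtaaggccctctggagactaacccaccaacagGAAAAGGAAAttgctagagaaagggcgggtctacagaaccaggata
Ifitm1 (chr7:140967826-140968075, plus strand): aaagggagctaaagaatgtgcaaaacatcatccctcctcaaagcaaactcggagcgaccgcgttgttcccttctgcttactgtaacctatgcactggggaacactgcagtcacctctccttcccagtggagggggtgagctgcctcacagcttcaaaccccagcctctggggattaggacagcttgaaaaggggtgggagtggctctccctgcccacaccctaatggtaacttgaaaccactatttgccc
Gbp2 (chr3:142620413-142620662, plus strand): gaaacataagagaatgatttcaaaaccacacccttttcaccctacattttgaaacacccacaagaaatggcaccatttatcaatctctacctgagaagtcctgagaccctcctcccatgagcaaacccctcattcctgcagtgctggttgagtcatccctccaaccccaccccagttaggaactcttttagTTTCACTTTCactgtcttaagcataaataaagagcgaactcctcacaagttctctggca
Irf1 (chr11:53769764-53770013, plus strand): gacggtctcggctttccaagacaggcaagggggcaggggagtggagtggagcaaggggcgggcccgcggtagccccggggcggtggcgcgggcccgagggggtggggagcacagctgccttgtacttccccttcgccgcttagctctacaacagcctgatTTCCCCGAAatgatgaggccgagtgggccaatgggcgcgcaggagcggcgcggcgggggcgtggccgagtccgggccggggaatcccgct
The neighbouring genes Ifitm2 and Ifitm1 thus differ in this window. In Ifitm3 the matches begin after the start, with response element cores at positions 3 and 20 and a gamma-activated core at position 14, and are not printed.

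Depth ranged from 7477544 to 11169003 reads per library, with reads in 10544 to 12103 genes. Cd4 lay between 1365 and 2224 in the CD4+ libraries and at 17.8 or less in the CD8+ ones, whereas Cd8a lay between 12159 and 18556 in CD8+ libraries and at 103 or less in CD4+ ones. Genes of other cells were present as well. The 10 proximal tubule markers summed to 8527 and 21148 in kidney CD4+ cells and 5979 and 24282 in kidney CD8+ cells, and to 4.99 or less in every spleen library. The 8 neutrophil markers summed to 29.6 or less in kidney and to 3569 or more in spleen. For the 5 erythroid markers the sums were 170 or less in kidney and 7309 or more in spleen. These are bulk samples, in which fewer cells of a type and less RNA per cell cannot be told apart.

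Each library held reads of 38 to 44 of the interferon genes, which together took 0.354% to 0.671% of the reads. Their share was 0.598% and 0.475% in the kidney CD4+ replicates and 0.671% and 0.598% in the spleen CD4+ ones. In CD8+ cells it was 0.354% and 0.397% in kidney and 0.384% and 0.432% in spleen, below every CD4+ library. That order rested on 1 gene, since without Ifi27l2a the share was 0.322% in kidney CD4+ replicate 2, within the 0.305% to 0.396% of the CD8+ libraries, and 0.435% to 0.537% in the other CD4+ libraries. Ifi27l2a, a strongly interferon-inducible gene, carried much of the total, at 3863 and 11957 in kidney CD4+ cells, 3816 and 3590.0 in kidney CD8+ cells, 9391 and 10488 in spleen CD4+ cells and 3504 and 2647 in spleen CD8+ cells. Its highest and lowest libraries were kidney CD4+ replicate 2 and spleen CD8+ replicate 2.

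Per kilobase of exon, averaged over the 8 libraries, Ifi27l2a had the highest level of the list at 13298. Next came Ifitm3 at 1432, the GTPase genes Igtp at 1379 and Ifi47 at 1231, then Ifitm2 at 1132, Isg20 at 1125 and Ifitm1 at 1115. Below Ifi27l2a this order of means did not hold within each group. Reads of Ifi47 may be shared with Olfr56, whose exons overlap its own on the same strand in the mm9 annotation. Group means of Ifitm3 ran from 189 per kilobase in spleen CD8+ to 3656 in kidney CD4+ cells and those of Ifitm2 from 63.4 to 2730.2 in the same groups. Those of Igtp lay between 1097 and 1672, but its levels in the 2 kidney CD4+ libraries were far apart, at 5308 and 536. Among regulators Irf1 at 742 and Usp18 at 489 stood above Irf7 at 108, Irf9 at 104, Stat2 at 13.7 and Irf8 at 9.16. The lowest genes of the list were Oas2 at 1.38, Oasl1 at 2.29, Oasl2 at 2.61 and Eif2ak2, the double-stranded RNA kinase, at 4.29 per kilobase. Rsad2, Cmpk2 and Ifi44 had 5.32, 5.72 and 6.01 per kilobase, and Mx1 had 17.3, whereas Ifit3 had 218, Isg15 111 and Ifit1 90.3. Without healthy mice these levels do not show whether any of the genes was raised in disease. Oasl1 did not reach a level of 10 in 2 libraries and was the only gene of the list that was not tested, which left 43 among 10845 tested genes.

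**Figure D1:**
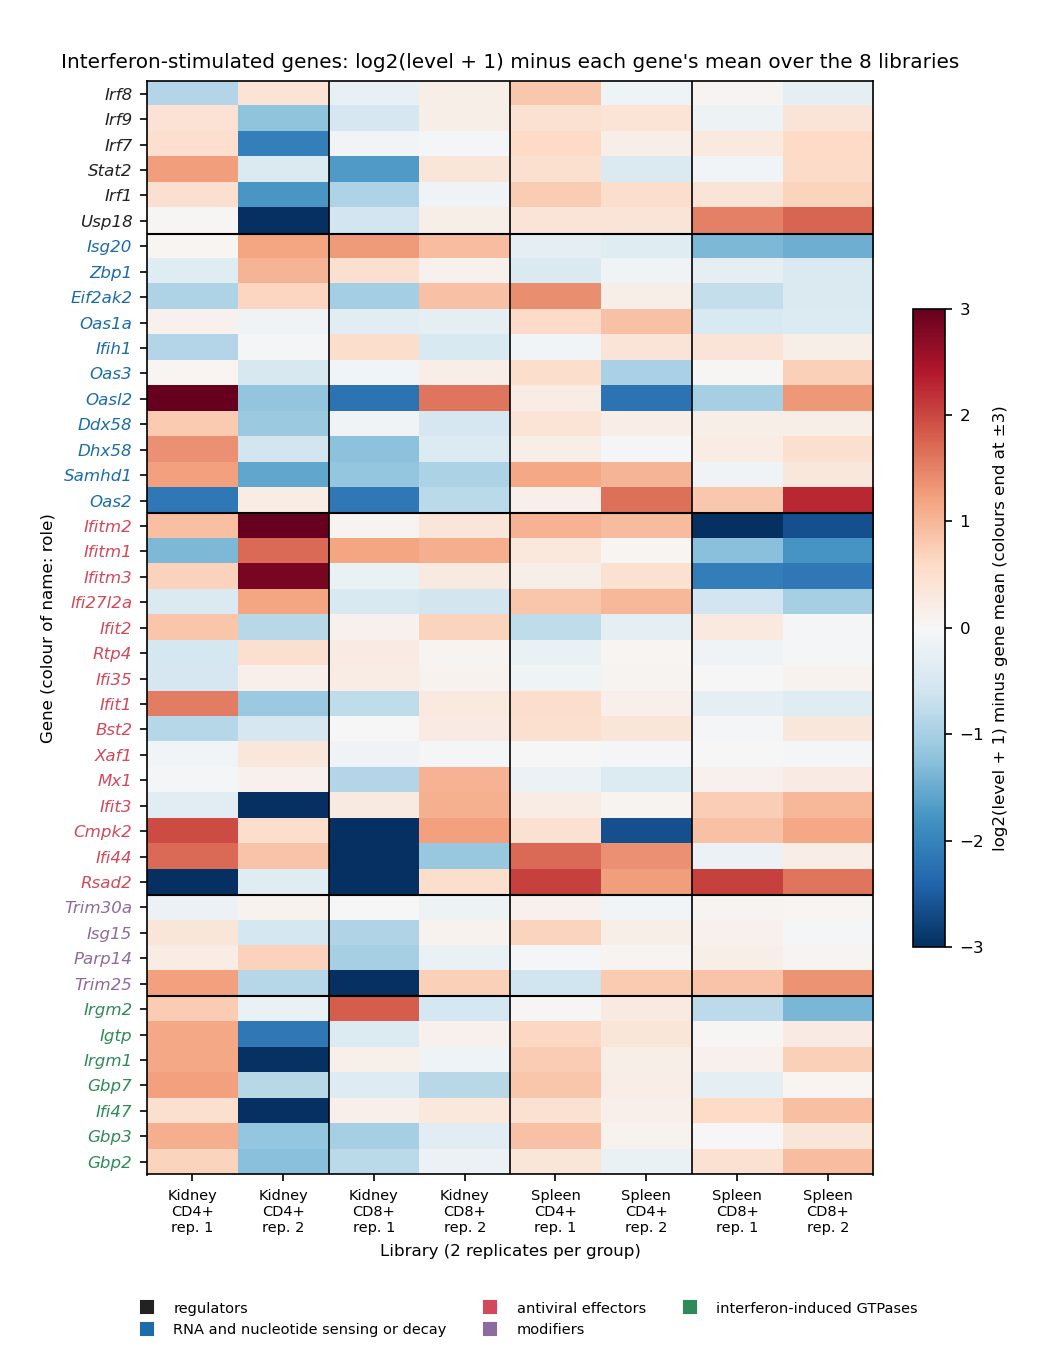
Colour shows log2(level + 1) of the 43 tested genes minus the mean of each gene over the 8 libraries, with libraries in columns and genes in rows ordered by role. Ifitm2 and Ifitm3 are lowest in both spleen CD8+ libraries, Isg20 is highest in kidney CD8+ replicate 1, and kidney CD4+ replicate 2 departs from its replicate in most rows.

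The kidney CD4+ replicates were unlike each other. In that group 30 of the 43 genes differed by more than 1 log2 unit between replicates, against 12 genes for kidney CD8+, 6 for spleen CD4+ and 3 for spleen CD8+ replicates. Over all tested genes the shares were 56.8%, 31.7%, 19.4% and 15.5% in the same order. Replicate 2 was lower by more than 2 log2 units in 13 genes and higher by as much in 5.

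The difference varied with the length of the gene, without a steady trend. The 5 genes under 1000 nt of exon had a median difference of 1.63 log2 units between replicate 2 and replicate 1, and all genes of that class 1.35. The medians were 0.66 for the 7 genes of 1000 to 2000 nt, -2.98 for the 4 of 2000 to 3000 nt, -1.79 for the 10 of 3000 to 4000 nt and -0.53 for the 17 above. Over all genes of these classes they were 0.30, -0.62, -0.66 and -0.39. Across the 43 genes, all measured in the same pair of libraries, the difference had a Pearson r of -0.26 with log2 length. Ifitm3 (678 nt) read 909 and 4049 in the replicates, whereas Irgm1 (5810 nt), with the most negative difference of the longest class, read 1751 and 98.9. Usp18 (1770 nt) and Ifit3 (1745 nt) were lower in replicate 2 by 3.69 and 2.67 log2 units, unlike the median of their class. Every contrast with kidney CD4+ cells uses this pair, and the pair widens the spread that the fit applies to all groups. For the comparisons without that group, the fit of the other 6 libraries is therefore given beside that of all 8.

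**Figure D2:**
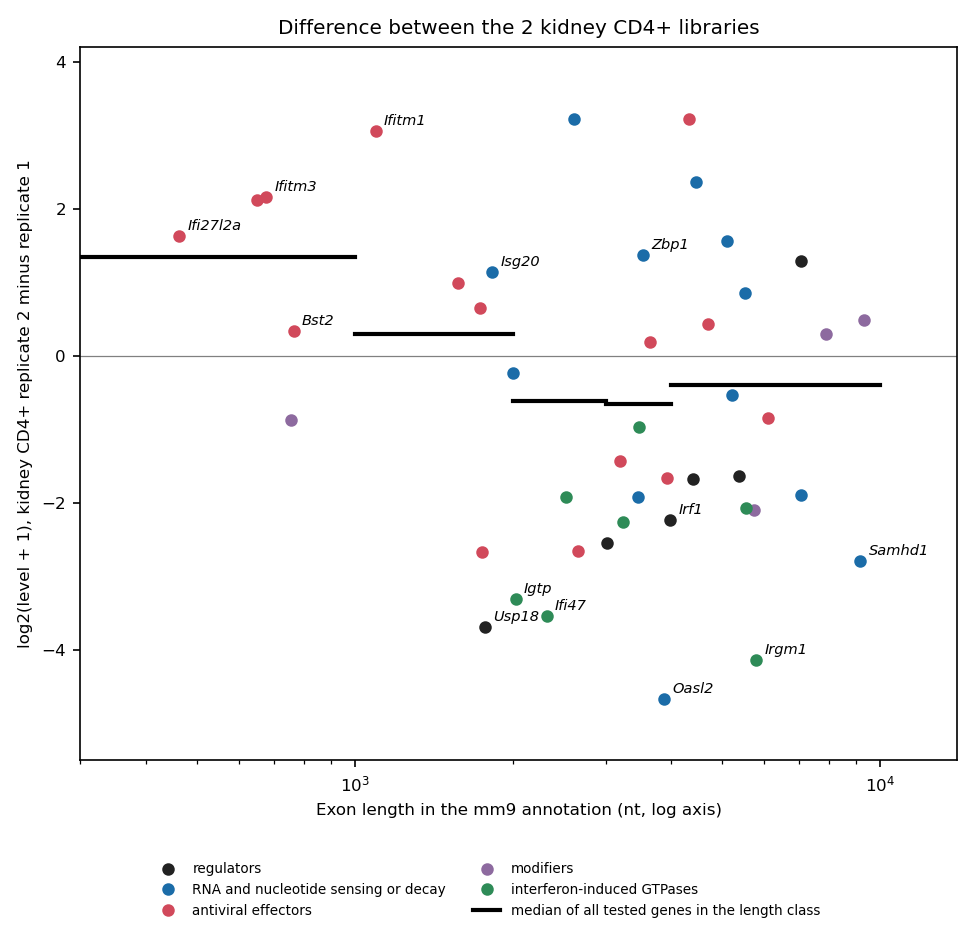
Each point is 1 of the 44 genes, the untested Oasl1 included. Exon length (nt, log axis) is set against the difference in log2(level + 1) between kidney CD4+ replicates 2 and 1, and bars mark the median of all tested genes per length class. Short genes such as Ifitm3 and Ifi27l2a are higher in replicate 2, and Usp18, Igtp, Ifi47 and Irgm1 are more than 3 units lower.

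Kidney CD8+ cells had more Isg20 than spleen CD8+ cells and more of all 3 Ifitm genes, beside less Usp18, Irf1, Gbp2 and Samhd1. limma at its main settings called Isg20 alone with all 8 libraries, and the other 7 without the unlike kidney CD4+ ones. With all 8 libraries Ifitm2 was also called with library weights (adjusted p = 0.000912) or a replicate block (0.0424). The comparison sets cells of the diseased target tissue against cells of the same kind from a lymphoid organ. Isg20, an exonuclease that degrades single-stranded RNA (chromosome 7, 86058310 to 86065248, plus strand, mm9), had levels of 3995 and 3114 in kidney CD8+ and 644 and 599 in spleen CD8+ libraries. Both kidney values lay above both spleen values. The mean levels were 3554 ± 623 and 622 ± 32.3 (SD, n = 2), a 5.72-fold rise in kidney (log2 difference 2.50 ± 0.42 SE, limma adjusted p = 0.0277). Over all tested genes 1.21% were called higher in kidney and 0.341% lower, and Isg20 was the only gene of the list called, with none lower.

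The Ifitm genes lie in a cluster on chromosome 7 (mm9) and code for membrane proteins that hinder viral entry. Ifitm1 (chromosome 7, 148153120 to 148155724, plus strand) read 2001 and 1865 in kidney and 371 and 259 in spleen CD8+ libraries. Ifitm2 (chromosome 7, 148140736 to 148141882, minus strand) read 376 and 460.2 against 26.3 and 56.3. For Ifitm3 (chromosome 7, 148195485 to 148196669, minus strand) the levels were 486 and 673 and 131 and 125. In each of the 3 genes both kidney libraries lay above both spleen ones, by 6.14-fold, 10.1-fold and 4.52-fold in mean level. Their log2 differences in the fit of all 8 libraries were 2.64 ± 0.82 (SE), 3.40 ± 0.67 and 2.15 ± 0.62, with limma adjusted p of 0.229, 0.0506 and 0.194. Because the 3 genes are close in sequence and the counting of shared reads is not described, the split of reads among them is uncertain.

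In the fit of the 6 libraries without kidney CD4+ cells, 4 genes of the list rose and 4 fell in kidney CD8+ cells, where 4.94% of 10292 tested genes were called higher and 2.91% lower. Those that rose were Isg20 (limma adjusted p = 1.57e-04), Ifitm1 (3.13e-04), Ifitm2 (0.00108) and Ifitm3 (0.00145). Usp18, the brake on interferon signalling (chromosome 6, 121195924 to 121220934, plus strand), fell by 1.82 ± 0.24 (SE) on the log2 scale, from 1683 and 1978 in the spleen libraries to 397 and 666 in the kidney ones (adjusted p = 0.00311). Irf1, a transcription factor induced by interferon gamma (chromosome 11, 53583516 to 53591876, plus strand), read 3361 and 4074 in spleen and 1362 and 2385 in kidney (-1.04 ± 0.25, adjusted p = 0.0389). These kidney libraries were below every spleen CD8+ library in both genes.

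Gbp2, a guanylate-binding protein (chromosome 3, 142283566 to 142300972, plus strand), read 297 and 467 in kidney and 724 and 994 in spleen CD8+ cells (-1.18 ± 0.29, adjusted p = 0.0427 in the same 6-library fit). Samhd1, which breaks down deoxynucleotides (chromosome 2, 156923265 to 156961001, minus strand), read 537 and 617 against 1118 and 1524 (-1.18 ± 0.19, adjusted p = 0.00782). With all 8 libraries the adjusted p of these 4 falls lay between 0.555 and 0.668. edgeR's quasi-likelihood test on the recovered reads called 0 genes of the list in either direction, with 5 higher and 0 lower at an unadjusted p below 0.05, and DESeq2 called 4 higher and 0 lower. The shares of all tested genes that edgeR and DESeq2 called were not counted, here or in the comparisons below. In the 8-library fit the Isg20 call was also lost when any 1 of the kidney CD8+ or spleen libraries was left out (adjusted p up to 0.271), and it held without either kidney CD4+ library. With the replicate number as a block its adjusted p was 0.0529. In a fit of the 4 compared libraries alone, the falls of Irf1 (adjusted p = 0.0690) and Gbp2 (0.0577) were not called.

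**Figure D3:**
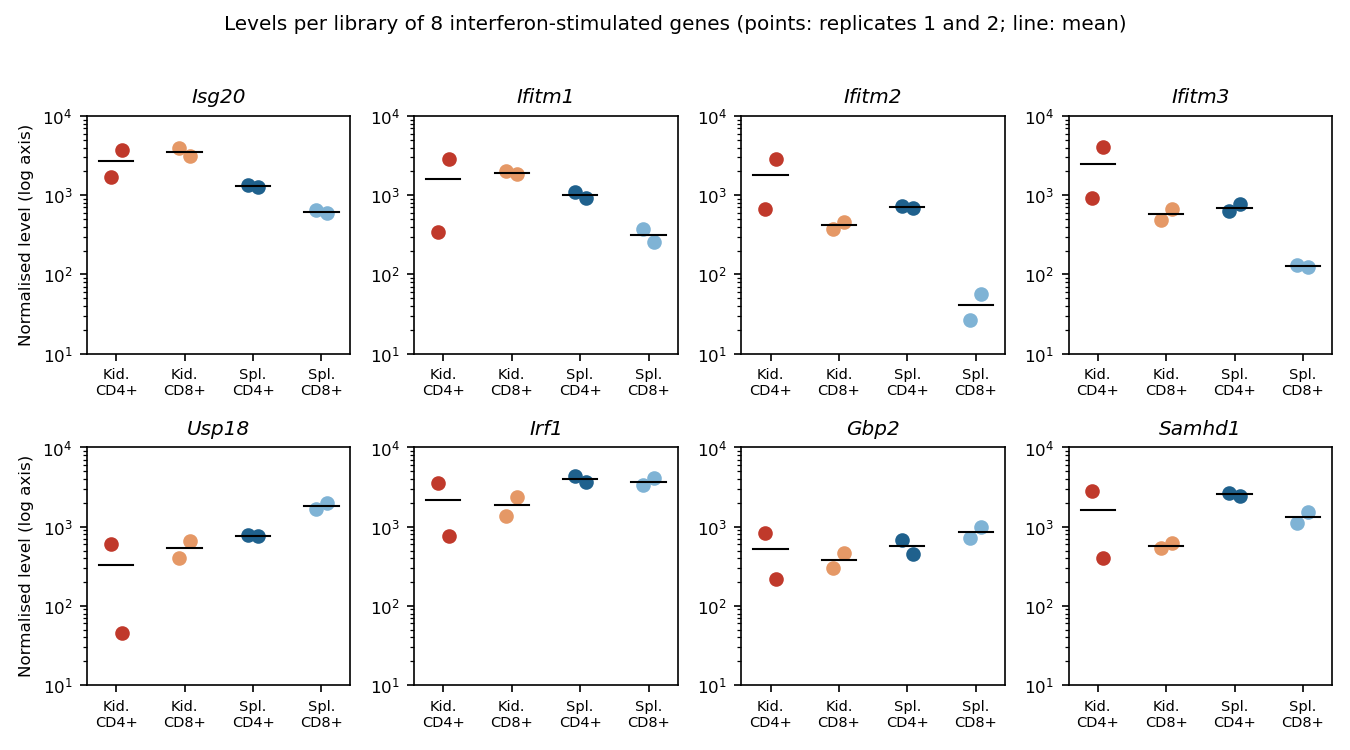
Normalised levels (log axis) of 8 genes in the 8 libraries, with points for replicates 1 and 2 and a line at the group mean. Spleen CD8+ cells have the lowest Isg20 and Ifitm3 of the 4 groups and the highest Usp18, and the kidney CD4+ points are the widest apart in most panels.

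The other regulators showed smaller differences in CD8+ cells, none of them called in either fit. Irf7 read 274 and 284 in kidney and 357 and 440.2 in spleen CD8+ cells, with both kidney values lower (log2 difference -0.50). Irf9, the DNA-binding subunit of the type I complex, read 374 and 595 against 472 and 694, and these ranges overlap. Stat2 was at 15.3 and 67.1 against 49.2 and 77.3, and Irf8, better known from myeloid and B cells, at 52.6 and 69.4 against 65.3 and 50.6. Reads of Irf7 and Irf9 may be shared with Phrf1 and Rnf31, whose exons overlap theirs in the mm9 annotation.

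By role, the median log2 difference between kidney and spleen CD8+ cells was -0.71 for the 6 regulators, -0.33 for the 11 tested genes of sensing or decay and 0.08 for the 15 antiviral effectors. It was -0.58 for the 4 modifiers, all of them below 0, and -0.51 for the 7 GTPases, of which Irgm2 alone lay above 0. Over the 43 genes the median was -0.28 against 0.00 for all tested genes, with 14 genes above 0 and 29 below. Both kidney libraries lay above both spleen libraries in 10 genes and below in 17, where 26.7% and 24.4% of all tested genes did so. Irgm2, named after its values were seen, read 312 and 60.9 in kidney and 50.5 and 33.4 in spleen CD8+ cells (log2 difference 1.73), so its kidney mean rests mainly on replicate 1.

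**Figure D4:**
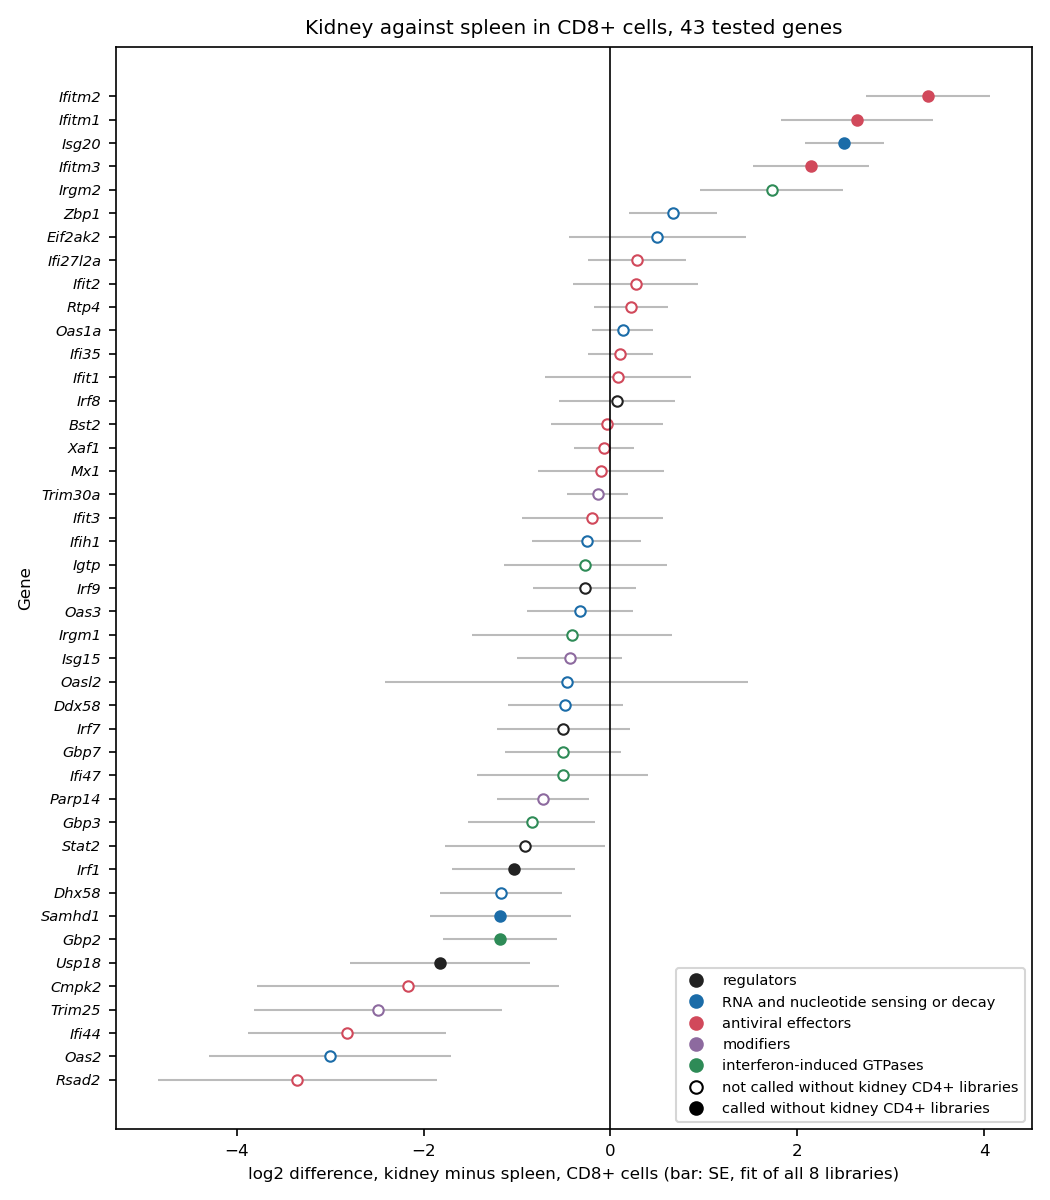
The log2 difference between kidney and spleen CD8+ cells (bars are SE in the fit of all 8 libraries) of the 43 tested genes, coloured by role, with filled points for genes called in the fit without the kidney CD4+ libraries. The 4 filled points on the right are Ifitm2, Ifitm1, Isg20 and Ifitm3, and those on the left are Irf1, Samhd1, Gbp2 and Usp18.

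Some of the markers listed for macrophages and dendritic cells moved with the Ifitm genes. The 10 macrophage and monocyte markers summed to 2417 and 1820.0 in kidney CD8+ and 852 and 1460.0 in spleen CD8+ libraries, with 1 marker at 0 in each kidney library and 2 or 3 markers at 0 in the spleen ones. The 7 genes listed as dendritic cell markers summed to 5815 and 3655 against 2318 and 2852, with Zbtb46 at 0 in all 4 libraries. These sums came mainly from H2-Aa, H2-Ab1, H2-Eb1 and Cd74, at 2041, 1013, 1216 and 1519 in kidney CD8+ replicate 1. Itgax and Xcr1 were at 64.8 or less in these libraries, so the sums do not show dendritic cells as such. Single markers were not alike in these CD8+ libraries. Among them C1qa, C1qb, C1qc, H2-Aa, H2-Ab1 and H2-Eb1 were higher in both kidney libraries. Lyz2 (1235 and 921 in kidney, 443 and 976 in spleen), Cd74, Itgax and Xcr1 overlapped between the organs. In CD4+ cells the macrophage sums were 6935 and 6542 in kidney and 1691 and 2282 in spleen. The part of these cells in the Ifitm and Isg20 results, or in the falls of Usp18, Irf1, Gbp2 and Samhd1, was not tested. Nor was the part of the cells behind the proximal tubule, neutrophil and erythroid markers given above.

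In CD4+ cells no gene of the list was called between kidney and spleen, where limma called 0.802% of all tested genes higher and 0.157% lower. At an unadjusted p below 0.05 Ifitm3 was higher, and Ifit3 and Rsad2 were lower. These are 3 of the 43 genes, beside 988 of all 10845 tested genes at that p. edgeR and DESeq2 also called 0. Isg20 read 1701 and 3744 in kidney and 1360.1 and 1274 in spleen CD4+ cells, and both kidney libraries were above both spleen ones (log2 difference 0.94 ± 0.42 SE, limma adjusted p = 0.559). Ifitm3 read 909 and 4049 against 632 and 764, again without overlap (1.46 ± 0.62, adjusted p = 0.526). In CD4+ cells 5 genes of the list were higher in kidney without overlap and 6 lower, and the share over all tested genes was not counted.

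The other Ifitm genes depended on the library. Ifitm1 was 346 and 2891 in the kidney CD4+ replicates, below and above the spleen values of 1106 and 925. Ifitm2 was 662 and 2893 against 734 and 688, with 1 kidney library below both spleen libraries. Their log2 differences ran from -1.54 to 1.51 for Ifitm1 and from -0.10 to 2.02 for Ifitm2 over the alternatives, with the extremes when 1 kidney CD4+ library was left out.

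Ifit3, Usp18 and Irf1 were low in kidney CD4+ replicate 2. Ifit3 read 238 and 36.4 in kidney and 354 and 317 in spleen CD4+ cells (log2 difference -1.83 ± 0.76, adjusted p = 0.5002), with both kidney values lower. Usp18 read 604 and 45.8 against 778 and 768 (-2.20 ± 0.97, adjusted p = 0.549), also lower in both, though replicate 1 was close to spleen. Irf1 was 3613 and 766 against 4345 and 3701, again with replicate 1 near the spleen range.

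Irf7 (410.2 and 69.7 against 441 and 331), Irf9 (708 and 228 against 724 and 702) and Stat2 (125 and 38.5 against 73.2 and 38) overlapped between the organs in CD4+ cells. Irf8 read 33.1 and 82.2 in kidney and 108 and 56.1 in spleen. Parp14, an ADP-ribosyltransferase, read 98 and 137 against 80.9 and 89.7, with both kidney values higher. The median log2 difference of the 43 genes was -0.31, with 16 above 0 and 27 below, beside -0.08 over all tested genes.

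Averaged over CD4+ and CD8+ cells, Isg20 and Ifitm2 rose in kidney and no gene of the list fell, where 2.71% of all tested genes were called higher and 0.664% lower. The log2 difference of Isg20 was 1.72 ± 0.30 (SE, limma adjusted p = 0.0164) and that of Ifitm2 2.18 ± 0.47 (adjusted p = 0.0462). All 4 kidney libraries lay above all 4 spleen libraries for Isg20, which 5.84% of tested genes did. Ifitm2 did not separate in this way, since spleen CD4+ cells had more of it than kidney CD8+ cells. edgeR called 2 genes and DESeq2 4.

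Usp18 and Rsad2 were the genes whose 4 kidney libraries lay below all 4 spleen libraries, which 3.60% of tested genes did. Usp18 had a log2 difference of -2.01 ± 0.68 (limma adjusted p = 0.218). Rsad2, also called viperin, an enzyme that makes a chain-terminating nucleotide, read 0 and 8.32 and 0 and 16.2 in kidney CD4+ and CD8+ cells and 48.2 and 27.6 and 48.5 and 35.3 in those of spleen (-3.49 ± 1.06, adjusted p = 0.162). Neither was called. Leaving out any 1 of the kidney CD8+ or spleen libraries ended the calls of Isg20 (adjusted p up to 0.116) and Ifitm2 (up to 0.227), and leaving out 1 of the kidney CD4+ libraries did not.

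Whether the organ difference itself differed between CD8+ and CD4+ cells was tested as an interaction. No gene of the list passed, and limma called 0% of all tested genes in either direction. At an unadjusted p below 0.05 Ifitm1, Ifitm2 and Isg20 had the larger kidney excess in CD8+ cells, by 2.65 ± 1.15 (SE), 2.44 ± 0.94 and 1.57 ± 0.59 log2 units, each with an adjusted p of 0.999. They are 3 of the 43 genes, beside 362 of all 10845 tested genes at that unadjusted p. edgeR and DESeq2 called 0 genes of the list.

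Within kidney, limma called no gene of the list between CD8+ and CD4+ cells, where 0.120% of tested genes were called higher in CD8+ cells and 0.083% lower. edgeR and DESeq2 called 0 as well. At an unadjusted p below 0.05 Ifit3 was higher in CD8+ cells, and Ifi44, Ifitm2 and Ifitm3 were lower. These are 4 of the 43 genes, beside 923 of all 10845 tested genes at that p. Ifit3 read 366 and 631 in kidney CD8+ and 238 and 36.4 in kidney CD4+ cells, with no overlap (log2 difference 2.35 ± 0.76 SE, adjusted p = 0.405). Ifitm2 (-1.73 ± 0.67, adjusted p = 0.526) and Ifitm3 (-1.74 ± 0.62, adjusted p = 0.471) were lower in both CD8+ libraries. Macrophage marker sums were lower there too, at 2417 and 1820 against 6935 and 6542 in kidney CD4+ libraries, and their part was not tested. Without overlap, 2 genes of the list were higher in CD8+ cells and 6 lower, and the share over all tested genes was not counted. Of the 43 genes 21 lay above 0 and 22 below, with a median of -0.02 beside 0.03 over all tested genes. The CD8+ against CD4+ contrast in kidney shares its CD4+ libraries with the organ comparison above.

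Within spleen, where replicates were closest, CD8+ cells had less Ifitm1, Ifitm2, Ifitm3, Ifi27l2a, Isg20, Oas1a and Samhd1 than CD4+ cells and more Usp18. limma at its main settings called none of these with all 8 libraries and all of them without the kidney CD4+ ones. With all 8 libraries and library weights 6 genes of the list were called lower, Ifitm2 among them (adjusted p = 2.81e-05). The share of all tested genes called with these weights was not counted. Ifitm2 differed most, at 26.3 and 56.3 in spleen CD8+ and 734 and 688 in spleen CD4+ libraries, 17.2-fold in mean level (log2 difference -4.17 ± 0.67 SE, limma adjusted p = 0.0501 with 8 libraries and 3.97e-04 with 6). In the fit of all 8 libraries limma called 0 genes of the list, where 0.129% of tested genes were called higher and 0.231% lower. At an unadjusted p below 0.05 that fit had 0 of the 43 genes higher and 5 lower, beside 697 of all 10845 tested genes. edgeR called 0 and DESeq2 2, both lower. In the 6-library fit 1 gene of the list rose and 7 fell in CD8+ cells, where 1.42% of tested genes were called higher and 2.13% lower.

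Ifitm3 read 131 and 125 in spleen CD8+ and 632 and 764 in spleen CD4+ cells, a log2 difference of -2.43 ± 0.24 (SE, adjusted p = 8.04e-04 in the 6-library fit). Ifitm1 read 371 and 259 against 1106 and 925 (-1.70 ± 0.21, adjusted p = 0.00328). Ifi27l2a read 3504 and 2647 against 9391 and 10488 (-1.70 ± 0.17, adjusted p = 8.87e-04). All of these separated the 2 cell types without overlap, as 17 of the 43 genes did in this direction and 9 in the other. The share over all tested genes was not counted here, so these counts do not set the list apart from other genes. With 2 libraries against 2 such separation is common. Between the organs in CD8+ cells it held for 26.7% of all tested genes upward and 24.4% downward. Reads of Ifi27l2a may include those of its neighbour Ifi27l2b, which overlaps it in the annotation.

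Usp18 went the other way, at 1683 and 1978 in spleen CD8+ and 778 and 768 in spleen CD4+ cells (1.24 ± 0.24, adjusted p = 0.0291). Of the genes named after their values were seen, Oas1a, which makes the activator of RNase L (chromosome 5, 121346265 to 121357536, minus strand), read 426 and 445 against 873 and 1085 (-1.16 ± 0.19, adjusted p = 0.0127). Isg20 had -1.08 ± 0.17 (adjusted p = 0.0109) and Samhd1 -0.97 ± 0.19 (adjusted p = 0.0296) in the same fit. Ifit3 (500.3 and 604 against 354 and 317) and Gbp2 (724 and 994 against 677 and 453) were higher in both CD8+ libraries, with no call in either fit.

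The median over the 43 genes was -0.03 between spleen CD8+ and CD4+ cells, beside -0.05 over all tested genes, with 21 above 0 and 22 below. By role the medians were -0.03 for regulators, -0.09 for sensing or decay, 0.01 for antiviral effectors, 0.08 for modifiers and -0.29 for GTPases. Ifitm3 and Isg20 had their lowest levels of all groups in spleen CD8+ cells, which enter both this comparison and the organ comparison in CD8+ cells. Macrophage marker sums were 852 and 1460.0 in spleen CD8+ and 1691 and 2282 in spleen CD4+ libraries, and their part in the Ifitm result was not tested.

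**Figure D5:**
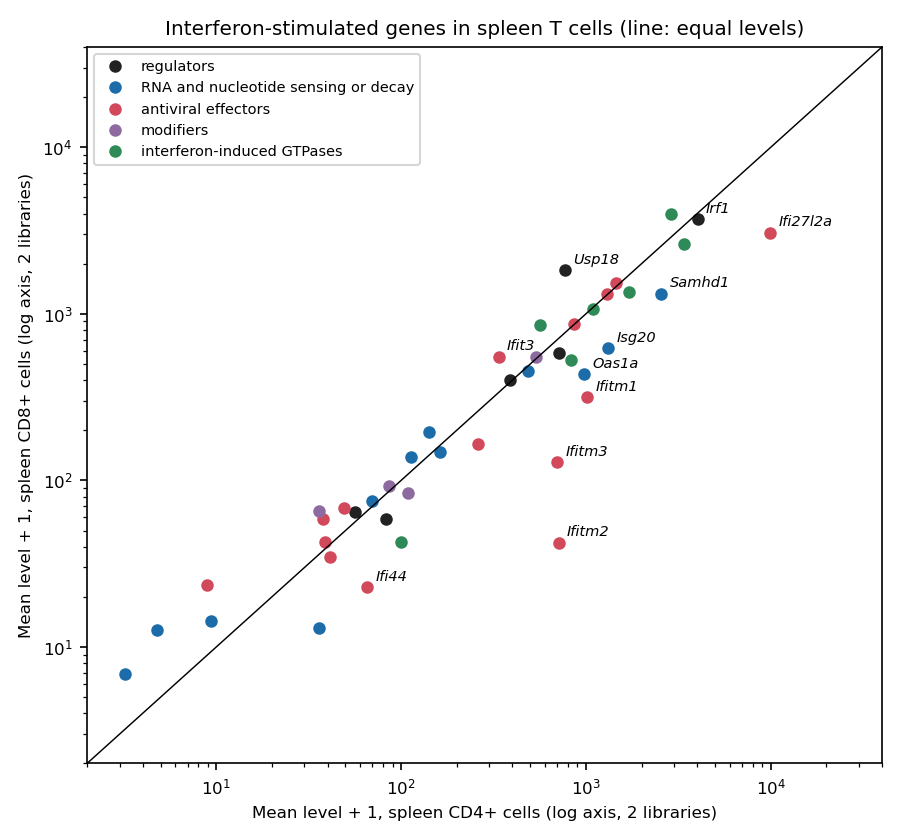
Mean level + 1 of the 44 genes in spleen CD4+ cells (horizontal, log axis) against spleen CD8+ cells (vertical, log axis), 2 libraries each, with a line at equal levels. Most genes lie near the line, Ifitm2, Ifitm3, Ifitm1, Ifi27l2a and Isg20 lie below it, and Usp18 lies above it.

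The Ifit genes differed little between organs in CD8+ cells. Ifit1 read 121 and 249.8 in kidney CD8+ and 169.7 and 159 in spleen CD8+ cells, Ifit2 56.9 and 83.3 against 64 and 50.6 and Ifit3 366 and 631 against 500.3 and 604, with log2 differences of 0.08, 0.27 and -0.19. In spleen CD4+ cells the 3 genes were at 295 and 227, 30.5 and 43.1 and 354 and 317. None of them was called. Several genes hardly varied. Xaf1, a binding partner of the apoptosis inhibitor XIAP, ranged from 813 to 1119 over the 8 libraries and Trim30a from 460 to 575.

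The effector Ifi35 ranged from 1033 to 1714 and Rtp4, a receptor transporter with antiviral activity, from 951 to 1895, in both cases with the lowest value in kidney CD4+ replicate 1. Isg15, a ubiquitin-like protein, ranged from 42.4 to 127. At the low end, Oasl2 ranged from 0 to 50.7, Oas2 from 0 to 20.1, Cmpk2 from 0 to 43.7 and Ifi44 from 0 to 72.6. These genes were at 0 in kidney CD8+ replicate 1, which at this depth does not show that they are absent, and their folds are not given.

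Of the genes around the list, 36 of 46 ligands, receptors and signalling genes were present and 35 tested. Ifng, which encodes interferon gamma, read 13296 and 9958 in kidney CD8+ and 4023 and 3522 in spleen CD8+ cells, and 4545 and 5586 and 3275 and 3582 in the CD4+ cells of these organs. Its log2 difference between kidney and spleen was 1.61 ± 0.35 (SE) in CD8+ cells (limma adjusted p = 0.0752 with 8 libraries and 0.00135 with 6) and 0.56 ± 0.35 in CD4+ cells (adjusted p = 0.724). The interaction was 1.06 ± 0.50 (adjusted p = 0.999).

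Ifngr1, a receptor chain for interferon gamma, read 3214 and 4629.9 in kidney against 2432 and 3687 in spleen CD8+ cells, and 10297 and 843 in the kidney CD4+ replicates against 1963 and 1559 in spleen.

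Ifngr2, the other chain of that receptor, was low throughout, from 0.849 to 5.20 in kidney and from 10.1 to 21.6 in spleen libraries, without overlap and without a call (log2 difference over both cell types -2.15 ± 0.68, adjusted p = 0.179). Ifnar1 ranged from 70.7 to 385 over the 8 libraries and Ifnar2 from 111 to 197, with no call in any comparison.

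Across the 8 libraries limma called 0 of these 35 genes in all 6 comparisons. In the 6-library fit of kidney against spleen CD8+ cells, 3 of the 35 rose (Ifng, Stat3 and Trex1) and 2 fell, Ikbke among them, where 4.94% and 2.91% of all tested genes did. Trex1, an exonuclease that clears cytosolic DNA, was named after its values were seen. It read 3197 and 3544 in kidney and 1191 and 1174 in spleen CD8+ cells (1.51 ± 0.18, adjusted p = 0.00179). In spleen CD8+ against CD4+ cells 1 of the 35 rose (Jak1) and 1 fell (Tmem173, which encodes the DNA-sensing adaptor STING) in that fit, beside 1.42% and 2.13% of all tested genes.

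Of 65 further interferon-induced genes 64 were present and 60 tested. With all 8 libraries 1 was called in 1 of the 6 comparisons. Plac8 was higher in spleen CD8+ (2867 and 2636) than in spleen CD4+ cells (95.9 and 192), by 4.33 ± 0.55 on the log2 scale (limma adjusted p = 0.0193). In the 6-library fit 59 were tested, of which 2 rose and 3 fell in kidney against spleen CD8+ cells, where 4.94% of all genes tested in that fit were called higher and 2.91% lower. Those that rose were Ly6a and Cxcl10, and those that fell were Slfn1, Tgtp1 and Tgtp2, the last pair being close copies that may share reads. The median log2 difference over the 59 was -0.33, with 15 above 0 and 44 below, beside -0.02 over all genes tested in that fit.

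Cxcl10, a chemokine that attracts T cells and is induced by interferon gamma, was named after its values were seen. It read 118 and 183 in kidney CD8+ and 41.7 and 22 in spleen CD8+ cells (2.24 ± 0.46, adjusted p = 0.0219 in the 6-library fit), and 279 and 311 and 207 and 138 in kidney and spleen CD4+ cells. Spleen CD8+ cells had its lowest level of the 4 groups, as they had for Ifitm3. Macrophage marker sums were also lowest there (852 and 1460) and highest in kidney CD4+ libraries (6935 and 6542). Their part in the Cxcl10 levels was not tested. Between spleen CD8+ and CD4+ cells 2 of the 59 rose (Sp100 and Plac8) and 3 fell (Ly6a, Cxcl10 and Ube2l6) in that fit, which called 1.42% of all genes higher and 2.13% lower.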

How the data were processed

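RNA was isolated from the sorted cells with a micro-scale kit and made into libraries with SMART-Seq v4, per the labels' protocols. That kit amplifies full-length cDNA and keeps no strand. The submitters' processing notes list the build mm9 and the aligners STAR 2.5.3 and TopHat2 2.1.0. How reads were counted and scaled is not given in the sources consulted. The authors deposited normalised signal per gene and library, called level here. Its values were whole multiples of 1 step per library, so reads were recovered for 100% of values (tolerance 1e-06). Amplified reads without molecular identifiers are not independent molecules.

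The main test was limma 3.58.1 (R 4.3.3) on log2(level + 1) of the deposited signal. It was 2-sided and used 1 mean per group, trended empirical Bayes and 4 residual degrees of freedom. Genes that reached a level of 10 in 2 libraries entered, with Benjamini-Hochberg adjustment over 10845 genes per comparison and a call below 0.05. The script was tested on simulated data. Log2 differences understate changes of low genes. edgeR 4.0.16 and DESeq2 1.42.0 on the recovered reads, other scalings, filters, pseudocounts, weights and left-out libraries were alternatives. The labels do not say whether same-numbered libraries share an animal or a pool, and the main fit treated them as unpaired. Deviations of same-numbered libraries correlated at -0.155 to 0.0559 over all tested genes, which does not settle this. In kidney, replicate 2 had the higher proximal tubule sum in both CD4+ and CD8+ cells.

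The genes and lists were chosen with earlier results of these data known, so no set test was run. Named genes were called ones, the 3 largest rises and falls per comparison among genes without overlap and with a mean level of at least 100, regulators, families and a fixed set of pathway genes. Values of some genes under this rule are not reported here. Positions and exon lengths are from an mm9 annotation, which held all 44 genes.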

Additional observations from a re-analysis of the deposited data

How the results depend on the processing

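Counts are of the 43 tested genes called by limma unless another tool is named, and 20 alternatives were run. Shares of all tested genes are given above for the main fit and the fit without both kidney CD4+ libraries. For the other settings they were not counted, so those counts are not set against all genes. In CD8+ cells, kidney against spleen, 1 gene was called higher, and the count was 2 with a pseudocount of 5, 4 with library weights, 0 with edgeR, 4 with DESeq2, 4 without both kidney CD4+ libraries and 4 with the compared groups only. Against 0 lower, these gave 1 with library weights, 4 without both kidney CD4+ libraries and 2 with the compared groups only. Over both cell types 2 genes were higher, against 1 with a pseudocount of 0.5, a filter at 50 or median-of-ratios scaling and 4 with DESeq2, and 0 were lower against 1 with library weights. In spleen CD8+ against CD4+ cells 0 were higher, against 1 without both kidney CD4+ libraries or with the compared groups only. There 0 were lower, against 1 with a pseudocount of 5, a filter at 50, median-of-ratios or TMM scaling, 6 with library weights, 2 with DESeq2, 7 without both kidney CD4+ libraries and 7 with the compared groups only.

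With the replicate block, 1 gene was called higher in kidney CD8+ cells, and it was Ifitm2 (adjusted p = 0.0424) in place of Isg20 (0.0529), while over both cell types Isg20 (0.0369) and Ifitm2 (0.0355) remained called. In no other comparison was a gene of the list called with the block. In CD4+ cells the difference of Ifitm1 (-0.0149) reversed to 0.0176 with median-of-ratios scaling, 0.748 with edgeR and 0.841 with DESeq2. In CD8+ cells that of Ifnar2 (0.0130) became -0.0271 with TMM, -0.0332 with edgeR and -0.0085 with DESeq2. The cause of these changes was not tested.

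Leaving out 1 library at a time gave 0 to 5 higher, 0 to 15 lower and a median of -0.60 to 0.14 for kidney against spleen CD4+ cells. It gave 0 to 4 higher and 0 to 4 lower in CD8+ cells, 0 to 7 higher with a median of -0.37 to 0.50 for the interaction, and 0 to 5 higher and 0 to 13 lower over both cell types. Within kidney it gave 0 to 7 higher, 0 to 7 lower and a median of -0.45 to 0.16, and within spleen 0 to 1 higher and 0 to 7 lower. A lone library was assumed to vary like the other groups. In CD4+ cells the organ difference ran from -1.54 to 1.51 for Ifitm1, -0.10 to 2.02 for Ifitm2, -0.13 to 1.70 for Ifnar1, -1.05 to 2.56 for Ifngr1, -2.44 to 0.10 for Irf7, -1.21 to 0.0803 for Irf8 and -0.44 to 1.23 for Stat2. In CD8+ cells it ran from -0.18 to 0.21 for Ifnar2, -0.13 to 0.27 for Irf8, -0.61 to 0.0559 for Irf9 and -1.95 to 0.12 for Stat2. Motif counts before the start only were 16 and 11 of 36 genes, against 20 and 13. With 2 libraries per group, genes with few reads, such as Oas2 at 0 to 21 per library, are limited by depth.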
